A study of Mus musculus with 7 samples.

Results

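The 3 Nr4a nuclear receptors (Nr4a1, Nr4a2 and Nr4a3) and 7 regulators of the CREB pathway (Creb1, Crem, Atf1, Crtc1, Crtc2, Crtc3 and Sik1) were examined in hippocampal neurospheres of control and Med23 conditional knockout (CKO) mice. Med23 is a subunit of the Mediator complex that links transcription factors to RNA polymerase II. These 10 genes were picked out by their symbols among the 24346 genes of the expression table, and all 10 were found. RNA-seq was done on 7 libraries, and values per library are given throughout in the order WT_215, WT_116, WT_213, WT_220 for the 4 controls and KO_117, KO_214, KO_218 for the 3 Med23 CKO samples. The Med23 CKO mice were Nestin-CreER:Med23 flox/flox, and the controls, labelled wild type, were littermates whose genotypes the study gives as Med23 flox/+ or Med23 flox/flox, without saying which library had which. Both groups were C57/BL6 mice that received tamoxifen by gavage at 200 mg/kg on each of 5 days. The labels place this treatment at 2 months of age and the study's methods place it earlier for cultures. Primary NSCs were taken from the hippocampus at 2 months and grown with FGF and EGF into neurospheres. Deletion depends on CreER driven by the Nestin promoter, so cells in which it was not active kept Med23, and a library may hold both kinds. Each library is, by the study's account, the neurospheres of a single mouse.

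CREB1, CREM and ATF1 are closely related leucine zipper proteins that bind the cAMP response element (CRE) in promoters. Phosphorylation by protein kinase A and by growth factor and calcium kinases lets them recruit the coactivators CBP and p300, and the CRTC proteins are separate coactivators that enter the nucleus when they lose phosphate. Salt-inducible kinases such as SIK1 phosphorylate CRTCs and hold them in the cytoplasm. The Nr4a genes are immediate early genes whose promoters carry CREs, they encode orphan receptors that act without a known hormone, and in the hippocampus CREB and NR4A activity are known for their part in the survival of new neurons and in memory.

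Values are FPKM, fragments scaled to transcript length and to the number of mapped fragments, so levels of different genes may be set side by side. The depth of the libraries is unknown, since the low FPKM values showed no steps of whole fragments, and the number of libraries limits the precision. Changes were tested on log2(FPKM + 1) with limma over the 14151 genes with a mean of at least 0.5 FPKM, and all 10 genes were among them. With an unadjusted limma p below 0.05, the rule for a call here, 141 of the 14151 genes were lower (0.996%) in Med23 CKO and 71 higher (0.502%), whereas 0 (0%) had a p below 0.05 after adjustment. Med23 had 10.1 to 12.9 FPKM in control and 8.12 to 9.97 FPKM in Med23 CKO, without overlap (log2 fold change -0.26, SE 0.18, two-sided exact permutation p = 0.0571). It was not called (limma, unadjusted p = 0.175). The FPKM of Med23 covers the whole gene, including exons that the deletion leaves in place. All 8 neural stem and astroglial markers checked were above 1 FPKM in every library. All 8 microglia and macrophage markers were above 0 in every library, with a summed level of 12.6 to 71.9 FPKM in control, 13.1 and 56.3 FPKM in KO_117 and KO_218, and 355 FPKM in KO_214. Cd68 contributed most to this sum in every library, with 259 FPKM in KO_214. By single gene, KO_214 was highest for Csf1r, Itgam, Aif1, Tmem119, Cd68 and Ptprc but not for Cx3cr1 and P2ry12. KO_214 was also highest in the 7 mural and fibroblast markers, with 297 FPKM against 5.84 to 79.7 FPKM in the other libraries, and in the 7 endothelial markers, with 95.1 FPKM against 5.77 to 57.2 FPKM. The summed level of the 8 neuronal markers was lowest in KO_214, with 48.6 FPKM against 105 to 167 FPKM, and Map2 contributed most to this sum in every library. By single gene, KO_214 was lowest for Syt1, Dcx, Map2 and Gad1 but not for Rbfox3, Snap25, Neurod1 and Slc17a7. The 7 oligodendrocyte lineage markers summed to 1084 to 4204 FPKM in control and 649 to 2568 FPKM in Med23 CKO, and the 10 proliferation genes to 386 to 1029 FPKM and 253 to 1367 FPKM.

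In control neurospheres, Nr4a1 had the highest mean of the 10 genes, 16.3 ± 7.44 FPKM (SD, n = 4), at the 61.2 percentile of the tested genes. It was first in WT_215 and WT_220, whereas in WT_116 and WT_213 it lay below Crem, Atf1 and Creb1. It was followed in control means by Atf1 (15.2 FPKM), Crem (13.5 FPKM), Creb1 (11.7 FPKM), Crtc2 (10.8 FPKM), Crtc1 (9.96 FPKM), Crtc3 (5.76 FPKM) and Sik1 (4.21 FPKM). Nr4a3 (1.75 FPKM) and Nr4a2 (1.37 FPKM) were the least abundant, at the 14.8 and 11.6 percentiles. Each neighbour in this order overlapped the next in its range over the control libraries, except Sik1 and Nr4a3. In Med23 CKO, Nr4a1 stood in place 6 of the 10, with 6.20 ± 2.62 FPKM (SD, n = 3), at the 33.9 percentile. Atf1 (15.8 FPKM) and Creb1 (13.5 FPKM) then came first, and Sik1 and the next lower gene were again the only neighbours whose ranges did not overlap.

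**Figure D1:**
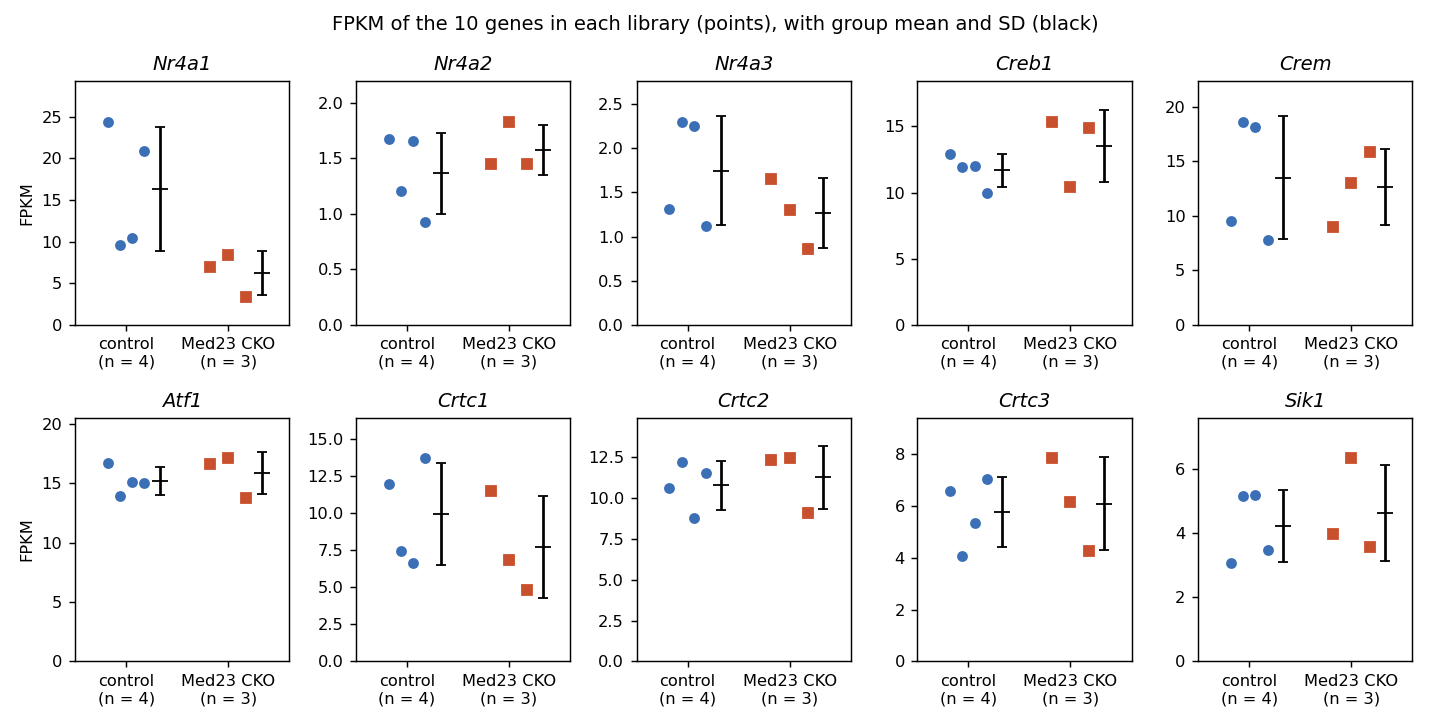
FPKM (y axis, from 0) of the 10 genes in each control (blue circles) and Med23 CKO (orange squares) library, with the group mean and SD in black. Nr4a1 is the gene whose 3 Med23 CKO points, 3.28 to 8.34 FPKM, all lie under the 4 control points, 9.60 to 24.4 FPKM.

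Among the 10 genes, Nr4a1 was lower in Med23 CKO and the other 9 did not pass the test in either direction. Nr4a1 (also called Nur77, an immediate early gene of growth factor and cAMP signaling) had 24.4, 9.60, 10.5 and 20.9 FPKM in control. It had 6.98, 8.34 and 3.28 FPKM in Med23 CKO. The groups did not overlap, but the highest Med23 CKO value lay close under the lowest control value, and the controls fell into a higher and a lower pair. The mean of Med23 CKO was 0.379 times that of control, and the log2 fold change was -1.24 (SE, standard error, 0.42, 95% interval -2.21 to -0.26). Only 0.360% of the tested genes had a lower log2 fold change. In limma the unadjusted p was 0.0194 and the adjusted p was 1.0. With the 35 ways to divide 7 libraries into 4 and 3, the two-sided exact permutation p was 0.0571, where the smallest possible is 0.0286. Thus 1 of the 10 genes was called lower, where the background was 0.996%, and 1 had groups that did not overlap with Med23 CKO below, where it was 1.53%, with 0 above, where it was 0.784%. The study already names Nr4a1 among its downregulated genes. Its test was Cuffdiff, with other thresholds, and its legend gives n = 3 in each group, whereas limma was used here with 4 controls. The 10 genes were chosen with earlier results of these data known, so these counts are a description and no independent support. Without KO_218, the library with the least Nr4a1, the log2 fold change was -0.90 and the call was lost (limma, unadjusted p = 0.0766). Without WT_215 or WT_220, the higher pair of controls, the call was only just kept (limma, unadjusted p = 0.0493 and 0.0495), with a log2 fold change of -1.02 and -1.09. Without KO_214, the library that stood apart in its cell type markers, it was -1.46. In bulk RNA, fewer cells that express a gene and less RNA per cell cannot be told apart.

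Nr4a2 (Nurr1, best known from midbrain dopamine neurons) was low in all libraries. It had 1.67, 1.21, 1.66 and 0.926 FPKM in control, against 1.45, 1.83 and 1.45 FPKM in Med23 CKO. The Med23 CKO values lay within or just above the control range, with a log2 fold change of 0.13 (95% interval -0.35 to 0.62, two-sided exact permutation p = 0.4). Nr4a3 (NOR-1) had 1.31, 2.30, 2.26 and 1.12 FPKM in control, against 1.65, 1.30 and 0.860 FPKM in Med23 CKO. Its groups overlapped, and the pair of controls that was high for Nr4a1 was the low pair for Nr4a3. The log2 fold change of Nr4a3 was -0.26 (95% interval -0.85 to 0.33, exact permutation p = 0.286). Both genes are near the low end, where addition of 1 to FPKM understates a change.

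The make-up of the Nr4a family followed from these values. Nr4a1 held 89.1%, 73.2%, 72.8% and 91.1% of the summed Nr4a FPKM in control, and 69.2%, 72.7% and 58.7% in Med23 CKO. KO_214 came close to the lower pair of controls and KO_218 stood lowest. The sum of the 3 receptors was 13.1 to 27.4 FPKM in control and 5.59 to 11.5 FPKM in Med23 CKO. The ratio of Nr4a1 to Nr4a2 was 14.6, 7.95, 6.30 and 22.6 in control and 4.81, 4.56 and 2.27 in Med23 CKO, again without overlap. Whether the change differed between receptors was tested on the difference of their log2 values in each library, for the 3 pairs. The change of Nr4a1 minus that of Nr4a2 was -1.37 (two-sided exact permutation p = 0.0571, Benjamini-Hochberg over the 3 pairs 0.171). The change of Nr4a1 minus that of Nr4a3 was -0.98 (exact p = 0.229, adjusted 0.229), and that of Nr4a2 minus Nr4a3 was 0.39 (exact p = 0.143, adjusted 0.214). None of the 3 differences passed after adjustment. With 35 splits, 1 pair alone could not pass over 3 pairs even at the smallest possible exact p. These tests therefore do not show that the receptors changed alike.

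**Figure D2:**
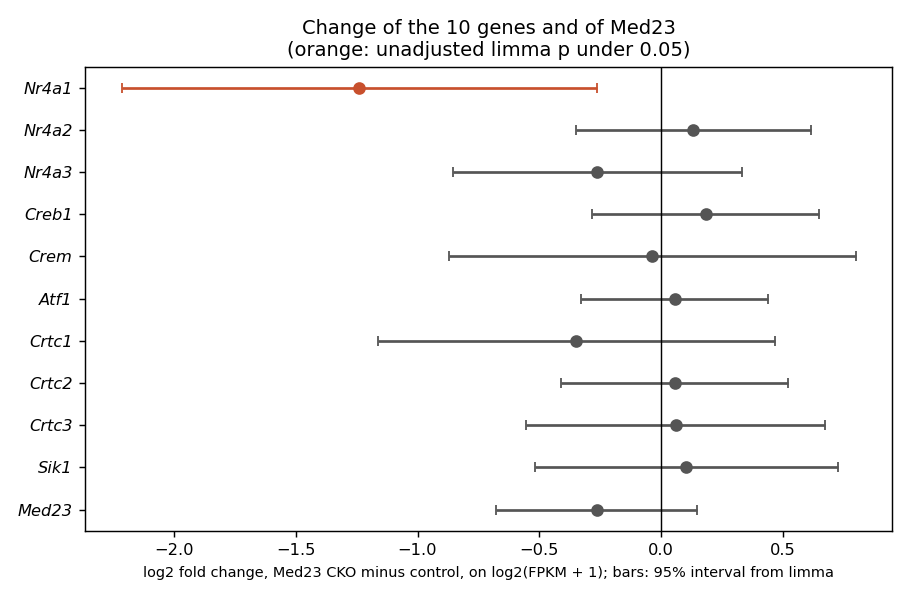
Log2 fold change of Med23 CKO against control on log2(FPKM + 1) (x axis) for the 10 genes and Med23, with 95% intervals from limma. The interval of Nr4a1, -2.21 to -0.26, lies under 0 and the intervals of the other genes span 0.

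The Nr4a promoters are shown because all 3 receptors are known CREB targets, while Nr4a1 was 2.27 (KO_218) to 22.6 (WT_220) times as abundant as Nr4a2 within a library. The half-site of the CRE, TGACG, was searched on both strands (CGTCA on the other strand) in the 250 bases before the start site given by RefSeq on GRCm38.p6, the build that mm10 corresponds to. Half-sites are in capitals, and all other bases are in lower case.
Nr4a1, chr15:101266596-101266845, forward strand: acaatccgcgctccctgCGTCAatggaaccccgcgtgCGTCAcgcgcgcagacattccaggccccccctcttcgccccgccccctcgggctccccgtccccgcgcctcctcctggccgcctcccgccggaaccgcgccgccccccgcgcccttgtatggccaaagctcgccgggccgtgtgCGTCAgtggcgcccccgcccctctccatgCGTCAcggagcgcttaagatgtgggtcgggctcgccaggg
Nr4a2, chr2:57124004-57124253, reverse strand: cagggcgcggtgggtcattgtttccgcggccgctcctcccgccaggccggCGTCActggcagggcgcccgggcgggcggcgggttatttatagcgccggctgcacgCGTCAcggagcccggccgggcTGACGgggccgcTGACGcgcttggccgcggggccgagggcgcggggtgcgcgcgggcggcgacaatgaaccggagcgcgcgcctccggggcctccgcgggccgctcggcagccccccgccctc
Nr4a3, chr4:48045055-48045304, forward strand: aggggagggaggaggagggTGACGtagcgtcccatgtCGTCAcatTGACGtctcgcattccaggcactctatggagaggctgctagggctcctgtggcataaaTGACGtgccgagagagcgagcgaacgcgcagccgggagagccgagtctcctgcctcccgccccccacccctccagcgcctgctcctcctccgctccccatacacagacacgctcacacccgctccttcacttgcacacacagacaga
Each of the 3 windows held 4 half-sites. In Nr4a1 they ended 229, 209, 65 and 36 bases before the start, and all 4 read CGTCA. In Nr4a2 they ended 196, 140, 119 and 107 bases before it, and in Nr4a3 at 227, 209, 201 and 143 bases. None of the 3 windows held the full palindrome TGACGTCA, which contains both half-sites. Over 32851 promoter windows of the same length, 17.8% held at least 1 half-site, 0.137% held at least 4, and 1.55% held the palindrome. Whether half-sites bear on the levels of the 3 receptors was not tested. Windows for Creb1, Crtc1 and Crtc3 held 0 half-sites and the window for Atf1 held 1. RefSeq windows were matched for 7 of the 10 genes, and those of Crem, Crtc2 and Sik1 were not analysed here. The windows of Nr4a1 and Nr4a3 lie before start sites that are downstream of the first annotated base of these genes. A match of letters is a description and does not show binding.

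The 3 CRE-binding factors themselves did not pass the test. Creb1, the founding member and an activator, had 12.9, 11.9, 12.02 and 9.95 FPKM in control, against 15.4, 10.4 and 14.9 FPKM in Med23 CKO. Its highest values were in 2 Med23 CKO libraries and the third lay at the low end of the controls (log2 fold change 0.18, 95% interval -0.28 to 0.65, two-sided exact permutation p = 0.229). Atf1, an activator that pairs with CREB1, had the narrowest spread of the 10 genes relative to its mean in both groups, 13.9 to 16.7 FPKM in control and 13.8 to 17.1 FPKM in Med23 CKO. The fold change, on the log2 scale, was 0.06 (95% interval -0.33 to 0.44, exact p = 0.514). Crem encodes activators and, from an internal promoter, the repressor ICER, and the table gives 1 value for all its transcripts. Crem had 9.51, 18.6, 18.1 and 7.74 FPKM in control, against 8.92, 13.0 and 15.9 FPKM in Med23 CKO. The controls fell into a high and a low pair, the reverse of Nr4a1. KO_117 lay within the low pair, and KO_214 and KO_218 between the pairs (log2 fold change -0.04, 95% interval -0.87 to 0.80, exact p = 0.943). In GENCODE M21, 472 of the 5895 exon bases of Crem (8.01%) overlap Gm6225 on the opposite strand, where reads cannot be assigned without strand. The sum of Creb1, Crem and Atf1 was 32.7 to 45.2 FPKM in control and 40.5 to 44.5 FPKM in Med23 CKO.

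The CRTC coactivators showed no common direction. Crtc1, the CRTC best known from neurons, had 11.999, 7.46, 6.66 and 13.7 FPKM in control, against 11.5, 6.85 and 4.82 FPKM in Med23 CKO. The same controls were high as for Nr4a1, but KO_117 stood with them, so the groups overlapped (log2 fold change -0.35, 95% interval -1.16 to 0.47, two-sided exact permutation p = 0.4). Crtc2, known from the control of glucose production in liver, had 8.76 to 12.2 FPKM in control and 9.06 to 12.4 FPKM in Med23 CKO (log2 fold change 0.06, 95% interval -0.41 to 0.52). Crtc3 had 4.07 to 7.05 FPKM in control and 4.26 to 7.83 FPKM in Med23 CKO (log2 fold change 0.06, 95% interval -0.56 to 0.67). Crtc2 held the largest share of the summed Crtc FPKM in 5 libraries, between 39.0% and 51.5%, whereas Crtc1 did so in WT_215 (41.1%) and WT_220 (42.5%). Sik1, an inducible kinase whose gene is itself a CREB target, had 3.05, 5.16, 5.17 and 3.46 FPKM in control, against 3.97, 6.32 and 3.57 FPKM in Med23 CKO. Its groups overlapped and its highest value was in KO_214 (log2 fold change 0.10, 95% interval -0.52 to 0.73, exact p = 0.714). The signs of the small changes of Crem, Atf1, Crtc2, Crtc3 and Sik1 turned with at least 1 other setting or left-out library.

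Over the 10 genes, 4 had a negative and 6 a positive log2 fold change, with a median of 0.06 against -0.03 over all tested genes. Apart from Nr4a1, the values ran from -0.35 (Crtc1) to 0.18 (Creb1). How large a change could be detected for each of these 10 genes was not tested.

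Several of the genes varied more between libraries of a group than between groups, and some of them in step with the proliferation genes. The 10 proliferation genes, among them Mki67 and Top2a, averaged 6.40, 4.61, 5.37 and 6.47 on the log2(FPKM + 1) scale in control, and 6.89, 3.59 and 5.52 in Med23 CKO. KO_117, WT_220 and WT_215, which were highest in these genes, were the 3 highest libraries for Crtc1 and Crtc3 and the 3 lowest for Crem. This order was common in the whole table: these libraries were the 3 highest for 26.1% and the 3 lowest for 23.6% of the tested genes, so 2 and 1 of the 10 genes are no more than the background. Nr4a1 was high in WT_215 and WT_220 too, but was at 6.98 FPKM in KO_117, the library with the highest proliferation level. With the proliferation level as a covariate in limma, an alternative chosen after the data were seen, the log2 fold change of Nr4a1 was -1.19 (unadjusted p = 0.0194). It was -1.19 with the microglia and macrophage level (unadjusted p = 0.0255) and -1.28 with the oligodendrocyte level (unadjusted p = 0.0215) in its place. These fits are given as a description, and the cause of the difference in Nr4a1 was not tested.

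**Figure D3:**
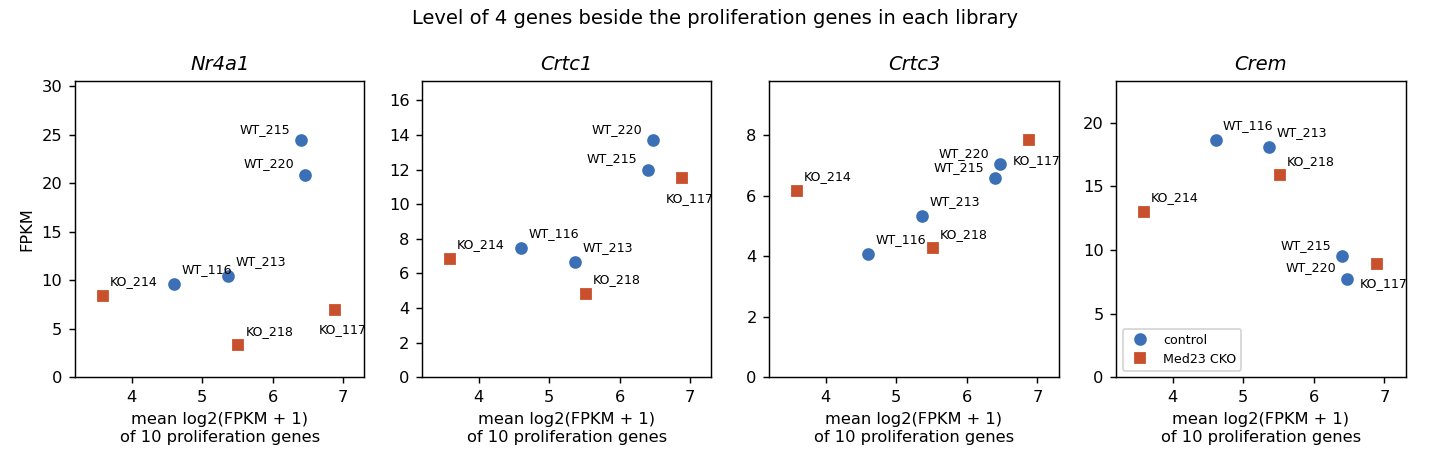
FPKM (y axis, from 0) of Nr4a1, Crtc1, Crtc3 and Crem in each library against the mean log2(FPKM + 1) of 10 proliferation genes (x axis). KO_117, at 6.89, lies with WT_215 and WT_220 for Crtc1, Crtc3 and Crem, and far below them for Nr4a1.

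The genes whose pattern over the 7 libraries was most like that of Nr4a1, by Pearson's r of log2(FPKM + 1), were Vgll4 (r = 0.997), a cofactor of TEAD factors, Zfp142 (r = 0.984), a zinc finger gene, and Chd5 (r = 0.970), a chromatin remodeler of neurons. Vgll4 had 50.9, 34.8, 34.7 and 50.0 FPKM in control, against 29.0, 31.9 and 22.4 FPKM in Med23 CKO, so it showed the same pairs of controls and the same non-overlap. Those most like Crem were Mphosph8 (r = 0.99), Mrps31 (r = 0.99) and Nemf (r = 0.99), and those most like Sik1 were Fchsd1, Ccdc109b and Gpr107 (r = 0.98 for each). These are the top of 14141 genes over 7 libraries, in each of which all genes share depth and culture, and are given as a description.

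The pathway around these genes was followed in 7 lists with 87 genes, of which 84 were tested. At an unadjusted p under 0.05, 3 were lower (3.57%, background 0.996%) and 2 higher (2.38%, background 0.502%), and 0 passed an adjusted p under 0.05 in limma. The median log2 fold change of the 84 was -0.07. The groups did not overlap for 3 genes with Med23 CKO below (Adcy8, Prkacb and Ppp3ca, 3.57%, background 1.53%) and for 3 with Med23 CKO above (Rps6ka2, Rxra and Ppargc1a, 3.57%, background 0.784%). Of the 21 genes of cAMP and protein kinase A signaling, 2 were lower and 0 higher, and the median was -0.13. Adcy8, a calcium-stimulated adenylyl cyclase, had 2.01, 2.92, 2.97 and 2.28 FPKM in control, against 1.58, 1.42 and 1.04 FPKM in Med23 CKO. The groups of Adcy8 did not overlap (log2 fold change -0.59, SE 0.21, two-sided exact permutation p = 0.0286, the smallest possible). The limma call was lost without WT_116, WT_213 or KO_218. Prkacb, a catalytic subunit of protein kinase A, had 75.9, 77.2, 83.9 and 77.6 FPKM in control, against 42.6, 67.8 and 61.8 FPKM in Med23 CKO. It too did not overlap (log2 fold change -0.47, SE 0.19, exact p = 0.0286), and KO_117 stood lowest. Without KO_117, its log2 fold change was -0.27 and the limma call was lost, as it also was without any 1 of the 4 controls and with quantile normalization, median centring, no trend in limma or the oligodendrocyte level as a covariate. The other catalytic subunit, Prkaca, had 49.1 to 90.8 FPKM in control and 40.0 to 91.9 FPKM in Med23 CKO. The third gene by p, the phosphodiesterase Pde4a, overlapped (log2 fold change -0.42, SE 0.35).

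Among 13 kinases that can phosphorylate CREB, 1 was higher (background 0.502%) and 0 lower (background 0.996%), with a median of 0.14. That gene, Rps6ka2, an RSK kinase downstream of ERK, had 8.08, 5.85, 7.72 and 6.49 FPKM in control, against 14.7, 13.1 and 8.13 FPKM in Med23 CKO. All Med23 CKO values were above all controls, but KO_218 only just (log2 fold change 0.66, SE 0.24, exact permutation p = 0.0286), and the limma call was lost without KO_117, KO_214, WT_116 or WT_220. With array weights, which let limma count variable libraries less, the log2 fold change of Rps6ka2 was 0.26. Camk2b (log2 fold change -1.60, SE 0.75) and Rps6ka1 (0.48, SE 0.25) overlapped between groups and did not pass. Camk2b, a calcium and calmodulin kinase of neurons, did so without KO_117 (-2.35, limma, unadjusted p = 0.0074) or WT_116 (-2.01), with array weights, and with each of the proliferation (-1.25), microglia (-0.98) and oligodendrocyte (-2.25) levels as a covariate, and it was -0.93 without KO_214. Rps6ka1 passed without WT_213. Of the 4 tested CREB cofactors (median -0.25), 0 passed, with log2 fold changes of -0.32 for Crebzf, -0.20 for Crebbp and -0.31 for Taf4a. Crebzf and Taf4a passed with array weights. Of 10 genes that act on SIKs or CRTCs (median -0.04), 0 passed, although Ppp3ca, a catalytic subunit of calcineurin that removes phosphate from CRTCs, did not overlap, with 62.7 to 79.9 FPKM in control and 52.0 to 60.2 FPKM in Med23 CKO (log2 fold change -0.29, exact p = 0.0286). Sik3 (-0.16) and Cab39 (0.12) were the next by p. Of 12 other CREB and ATF factors (median 0.07), 0 passed, with log2 fold changes of -0.48 for Creb5, 0.23 for Creb3l2 and 0.15 for Atf6. Creb5 passed without KO_117 (-0.89) and was at -0.094 without KO_214.

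Nr4a1 and Nr4a2 can bind DNA as heterodimers with retinoid X receptors, and of the 2 that were tested 1 was higher, where the background was 0.502%. Rxra had 8.06, 8.19, 7.88 and 7.35 FPKM in control, against 10.8, 16.4 and 9.31 FPKM in Med23 CKO. The controls were tightly grouped and every Med23 CKO value lay above them (log2 fold change 0.53, SE 0.22, two-sided exact permutation p = 0.0286). The highest value was in KO_214, and without that library the log2 fold change was 0.32 and the limma call was lost (unadjusted p = 0.137). The call was also lost without any other single library except KO_218, with the microglia level as a covariate (log2 fold change 0.42), with the leading digit of the library number as a covariate (0.54) and with array weights (0.31). Rxrb had 11.8 to 23.8 FPKM in control and 9.23 to 17.6 FPKM in Med23 CKO (log2 fold change -0.21, SE 0.31).

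Of 24 tested CREB-responsive genes other than the Nr4a genes, Crem and Sik1, 17 had a negative and 7 a positive log2 fold change. The median was -0.20, against -0.03 over all tested genes. Only Egr1, an immediate early zinc finger factor, was called. It had 146, 23.7, 37.9 and 160 FPKM in control, against 4.76, 36.9 and 14.5 FPKM in Med23 CKO. WT_215 and WT_220 were high, as for Nr4a1, and KO_214 overlapped the lower controls (log2 fold change -2.20, SE 0.86, two-sided exact permutation p = 0.114). The limma call was lost without WT_215, WT_220, KO_117 or KO_218, with log2 fold changes between -2.23 and -1.51, and with the oligodendrocyte level as a covariate. Fos, a subunit of the AP-1 factor, did not pass (log2 fold change -0.98, SE 0.44). It did without KO_214 (-1.49, limma, unadjusted p = 0.0031), with array weights, and with the leading digit of the library number, the proliferation level or the microglia level as a covariate, and it was -0.45 without KO_117. Ppargc1a, a coactivator of mitochondrial genes, was the 1 gene of the list whose Med23 CKO values, 4.81 to 5.98 FPKM, all lay above the controls, 2.34 to 4.78 FPKM (log2 fold change 0.53, SE 0.24, exact p = 0.0571), and it did not pass in limma, except with median centring, without WT_213 or with the proliferation level as a covariate. The study, which used Cuffdiff, names Egr1 and Fos among its downregulated genes, and the list was chosen with earlier results of these data known. As a description, the list as a whole held 1 called gene of 24 (4.17%), against 0.996% of all genes. The count was 6 without KO_214 and 0 without WT_220 or KO_218. It was 5 with array weights, 2 with the leading digit of the library number as a covariate, and 5 and 6 with the proliferation and microglia levels.

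**Figure D4:**
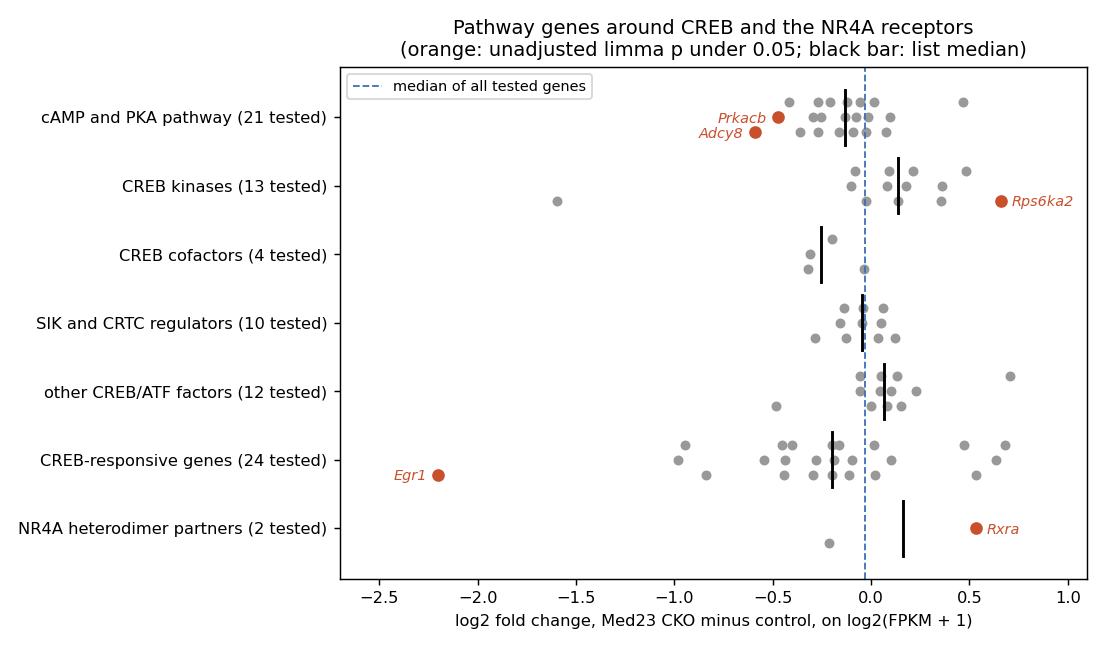
Log2 fold change of Med23 CKO against control (x axis) for the 84 tested pathway genes (points) in 7 lists (y axis; 2 genes are in 2 lists), with list medians as black bars and the median of all tested genes, -0.03, as a dashed line. The called genes, in orange, are Egr1, Adcy8 and Prkacb on the lower side and Rps6ka2 and Rxra on the higher side.

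In the RefSeq annotation of GRCm38.p6, Nr4a1 lies on chromosome 15 from 101253902 to 101274795, Nr4a2 on chromosome 2 from 57106830 to 57124003 and Nr4a3 on chromosome 4 from 48045078 to 48086447. Creb1 lies on chromosome 1 from 64532794 to 64604548, Crem on chromosome 18 from 3266354 to 3337773 and Atf1 on chromosome 15 from 100227859 to 100261248. Crtc1 lies on chromosome 8 from 70382352 to 70439702, Crtc2 on chromosome 3 from 90253858 to 90264125, Crtc3 on chromosome 7 from 80586627 to 80688948 and Sik1 on chromosome 17 from 31844248 to 31855804.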

How the data were processed

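RNA of primary hippocampal neurospheres was sequenced in 7 libraries, assigned to groups by their titles (0 columns of samples without a group). The authors removed adapters with cutadapt, mapped the trimmed reads to mm10 using TopHat with its defaults, and calculated FPKM per gene with Cuffdiff, which they deposited per library. The deposited group means, fold changes and test columns of Cuffdiff were not used. The TopHat and Cuffdiff versions and the gene annotation are not given in the sources used here.

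log2(FPKM + 1) was compared with limma 3.58.1 (lmFit and eBayes with trend, R 4.3.3) for genes whose mean reached 0.5 FPKM, two-sided, with Benjamini-Hochberg adjustment over all 14151 genes. Exact permutation tests, two-sided, used the 35 ways to divide 7 libraries into 4 and 3 (numpy 2.4.6, Python 3.11.15). The table holds Taf4 as Taf4a, matched through RefSeq synonyms. The genes and lists were chosen with earlier results of these data known. Named are the 10 genes, Med23, the 3 genes with the smallest p in each list, list genes whose role beside a member is described, and the 3 genes most like Nr4a1, Crem and Sik1. There were 19 alternatives: a pseudocount of 0.1, no filter, a mean of 1 FPKM, quantile normalization, median centring, no trend, robust empirical Bayes, array weights, the leading digit of the library number as a covariate, removal of 1 library at a time, and, added after the data were seen, the mean of the proliferation, microglia or oligodendrocyte list as a covariate.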

Additional observations from a re-analysis of the deposited data

Results flagged for a closer look

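Among 31 genes checked for a stray library within the 4 controls, Crebzf, a partner of CREB-like factors, had 21.7 FPKM in WT_116 and 25.9 to 26.3 FPKM in the other 3 controls. Its gap to the nearest control was 0.900 of the range of the group, above Dixon's 95% critical value. Chance gives such a gap in about 1 in 20 groups. The 3 Med23 CKO libraries are too few for this check.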

How the results depend on the processing

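No paired analysis was possible because the groups share no replicate number. The lower log2 fold change of Nr4a1 kept its direction in all 19 alternatives, between -1.66 (array weights) and -0.90, and its unadjusted p stayed under 0.05 in 18. With each library left out in turn it lay between -1.46 and -0.90. With array weights, whose estimate stopped before it converged, 2 of the 10 genes were lower, Nr4a3 being added. With a library left out, between 0 (without KO_218) and 1 were. Over all genes, 887 were lower and 193 higher with array weights, 140 were higher with no filter on low values, and with a library left out between 71 (without KO_218) and 410 (without KO_117) were lower and between 44 (without WT_215) and 362 (without KO_117) higher. At an adjusted p under 0.05, 1 gene passed without KO_214 and 1 without KO_218, and 0 in every other alternative. With the proliferation, microglia and oligodendrocyte levels as covariates, chosen after the data were seen, 380, 391 and 613 genes were lower and 191, 147 and 744 higher. In the pathway lists, 10 genes were lower and 0 higher with array weights and 1 was higher with the leading digit of the library number (1 or 2) as a covariate. With the proliferation, microglia and oligodendrocyte covariates, 8, 9 and 3 were lower and 5, 2 and 5 higher, and with a library left out between 1 and 8 (without KO_214) lower and between 0 and 3 (without WT_213) higher. The change of Nr4a1 minus that of Nr4a2 was -1.37 with quantile normalization, where its exact permutation p was 0.0286. The cause of these shifts was not tested.

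With array weights, the log2 fold change turned to -0.0048 for Nr4a2, -0.092 for Atf1, -0.064 for Crtc2, -0.22 for Crtc3, -0.10 for Sik1 and 0.12 for Crem. With the oligodendrocyte covariate it turned to 0.14 for Crem and -0.064 for Crtc3, and with the microglia covariate to -0.055 for Sik1. With a library left out, it ranged from -0.25 to 0.17 for Crem, -0.032 to 0.19 for Crtc2, -0.12 to 0.26 for Crtc3, -0.10 to 0.24 for Sik1, -0.82 to 0.072 for Taf4a, -0.0043 to 0.35 for Creb3l2 and -0.37 to 0.063 for Rxrb. Library depth is unknown and limits Nr4a2 and Nr4a3 most, since they lie nearest to the filter.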
